A study of Mus musculus with 3 samples.

Results

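Old muscle of mice on a control diet was compared with muscle of young mice by RNA sequencing, with 1 pooled library a side. The young library held RNA of 3 male mice aged 24 weeks, and the aged control library held RNA of 6 male mice aged 87 weeks that had been fed a diet deprived of EPA (eicosapentaenoic acid, a fish-oil fatty acid) during 12 weeks, starting at 75 weeks of age. A further library, aged EPA, held RNA of 6 male mice of the same age fed 1 wt% EPA over the same weeks, and its values are given only where they add a further reading of a gene. The muscle was the gastrocnemius together with the plantaris, 2 calf muscles made mostly of fast fibres. By the labels the aged mice were C57BL/6J and the young mice C57BL/7J, and no diet is given for the young mice, so age, diet, strain label and size of the pool cannot be told apart. No genotype other than the strain and no transgene is given for any group. The genes compared were those whose mean over the 3 libraries reached 1 CPM (read counts divided by a total close to the depth of a library), which were 12966 of the 42258 genes in the tables. In the deposited tables that divisor is 1 of 5 and differs from gene to gene, 2 of the 5 lie near the depth of none of the 3 libraries, and the reason is not given in the sources used here. The log2 ratio of recovered counts over the depth of each library less that of the deposited CPM ran from -0.04 to 0.02 over genes above 0 in both, so differences of that size are not read as changes. Changes are given as log2 of CPM + 1 in aged control less the same in young, so a positive value means a higher level in aged control.

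Each side is 1 library, so no difference has a replicate check, and no test, p-value or standard error is given. The libraries held 57386394 counts in young and 57622886 in aged control. For single genes, a 95% interval of the ratio of counts (exact Clopper-Pearson on the share of counts from aged control) is given in places. These intervals cover counting error only, and neither the spread between mice nor that between library preparations. The pooled tissue carried the transcripts of muscle: Acta1, the actin of skeletal muscle fibres, stood at 31001 CPM in young mice against 36148 CPM in aged control, and Ckm, the muscle creatine kinase, at 19250.4 and 19190 CPM.

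Skeletal muscle loses mass and force with age, fast fibres being lost or thinned more than slow ones, and the nerve contact of some fibres is lost and remade. Fibres draw energy from glycogen and fatty acids, the latter through mitochondria and under the control of the PPAR family of nuclear receptors. The fibres share the tissue with blood vessels, nerve branches, connective tissue cells, fat cells and resident immune cells, whose transcripts enter the same library.

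Most genes stood close together in both libraries. The median change was -0.01, with quartiles of -0.17 and 0.14, and 94.8% of the genes lay within 1.5-fold. A 2-fold difference was reached by 116 genes that were higher in aged control (0.895% of those compared) and by 109 that were lower (0.841%). At 1.5-fold the numbers were 349 genes higher (2.69%) and 330 lower (2.55%). Among the 88 genes whose mean reached 1000 CPM, which include the main contractile and glycolytic genes, none was 1.5-fold apart. Of the genes at least 2-fold apart, 25 had only a model or clone name.

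**Figure D1:**
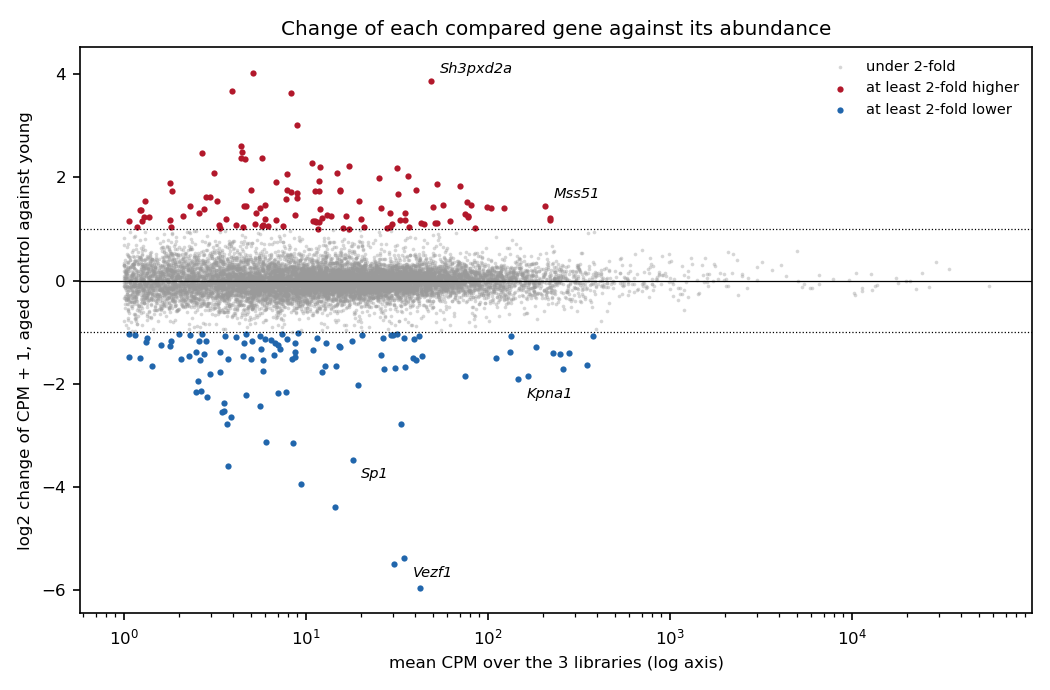
Log2 change of CPM + 1 in aged control against young (vertical axis) for each of the 12966 compared genes, against the mean CPM over the 3 libraries (horizontal log axis). Coloured points are the 116 higher and the 109 lower genes that reached 2-fold, dotted lines mark 2-fold, and genes listed at 0 in a library are drawn at the value that the added 1 gives. Large changes lie at all levels up to that of Pdlim5, and none lies among the 88 genes above 1000 CPM.

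Of the 1079 genes whose mean reached 100 CPM, 15 were higher and 23 lower in aged control by 1.5-fold or more. Mss51, which encodes a mitochondrial protein of fast muscle, led those that were higher, with 105 CPM in young mice against 288 CPM in aged control (log2 count ratio 1.47, counting interval 1.42 to 1.51). Ppp3cb, the beta catalytic subunit of the calcium-activated phosphatase calcineurin, stood at 119 and 279 CPM. Both genes lie on the minus strand of chromosome 14 of GRCm38, Mss51 at 20482867 to 20496901 and Ppp3cb next to it at 20499364 to 20546573, and aged EPA held 227 and 259 CPM of them. Whether reads of neighbouring genes were told apart by strand is not given in the sources used here.

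A pair of abundant metabolic genes was higher in aged control than in either of the other libraries. Oxct1, the enzyme that lets muscle burn ketone bodies, stood at 150.0 CPM in young, 342 CPM in aged control and 168 CPM under EPA. Gys1, the muscle glycogen synthase, stood at 278, 537 and 329.5 CPM in the same order. Lpin1, a phosphatidate phosphatase of triglyceride synthesis, was instead as high in aged EPA (419.7 CPM) as in aged control (421 CPM), against 221 CPM in young. Itgb1, the beta1 integrin that anchors fibres to the matrix, stood at 116 CPM in young mice against 191 CPM in aged control. Apoe, a carrier of lipids, stood at 68.3 and 124 CPM.

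The abundant genes that were lower took in several regulators. Kpna1, an importin that carries proteins into the nucleus, stood at 193 CPM in young, 50.5 CPM in aged control and 195 CPM under EPA. Rragd, a small GTPase that relays amino acid supply to mTORC1, stood at 213, 58.2 and 229 CPM. Nfe2l1, a transcription factor of proteasome genes, stood at 387, 118 and 274 CPM. In each of these 3 genes the aged EPA library lay nearer to young than to aged control. Ank1 differed from them, since both aged libraries were low.

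Ank1, whose small isoform ties the sarcoplasmic reticulum to the myofibril, stood at 304 CPM in young, 124 CPM in aged control and 122 CPM under EPA (log2 count ratio -1.27, counting interval -1.31 to -1.23). Tuba4a, a tubulin, stood at 565 and 294 CPM, and Pdlim5, a Z-disc adaptor protein, at 479.7 and 226 CPM. Gapdh, the glycolytic enzyme often used as a reference transcript, stood at 642 CPM in young, 372 CPM in aged control and 251 CPM under EPA. Gapdh has many processed pseudogenes, and how reads shared with them were counted is not given in the sources used here.

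**Figure D2:**
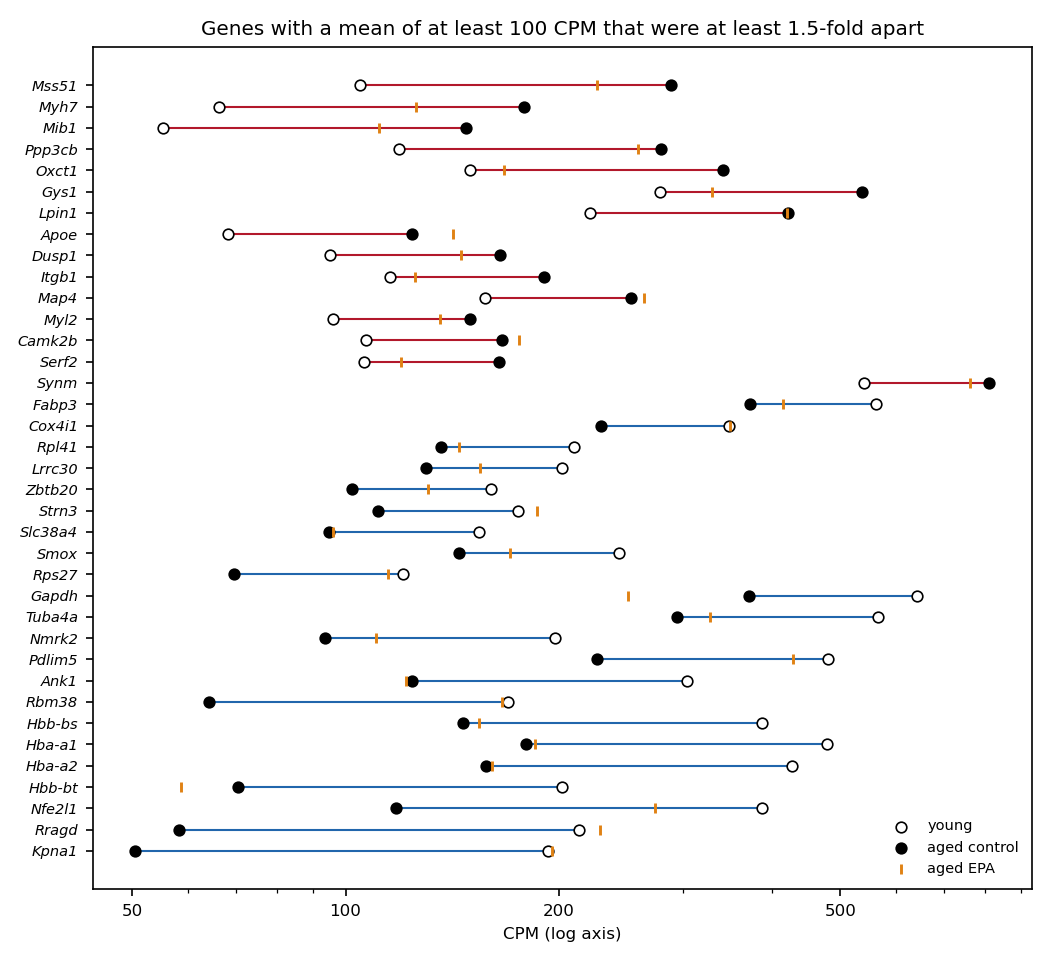
CPM (horizontal log axis) in young (open circles), aged control (filled circles) and aged EPA (vertical ticks) for the 15 genes higher and all but 1 of the 23 genes lower by at least 1.5-fold among those whose mean reached 100 CPM, with 1 library for each symbol. Red lines join young and aged control where aged control was higher and blue lines where it was lower; the aged EPA tick falls near young in Kpna1, Rragd, Pdlim5 and Rbm38 and near aged control in Lpin1 and Ank1.

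Gene lists for 70 pathways, complexes and cell types were then read against the background of all compared genes, where the median change was -0.01 and 47.5% of the genes were higher. The median was at or above 0.1 in 15 lists and at or below -0.1 in 19. In bulk tissue, fewer cells of a type and less RNA per cell cannot be told apart.

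**Figure D3:**
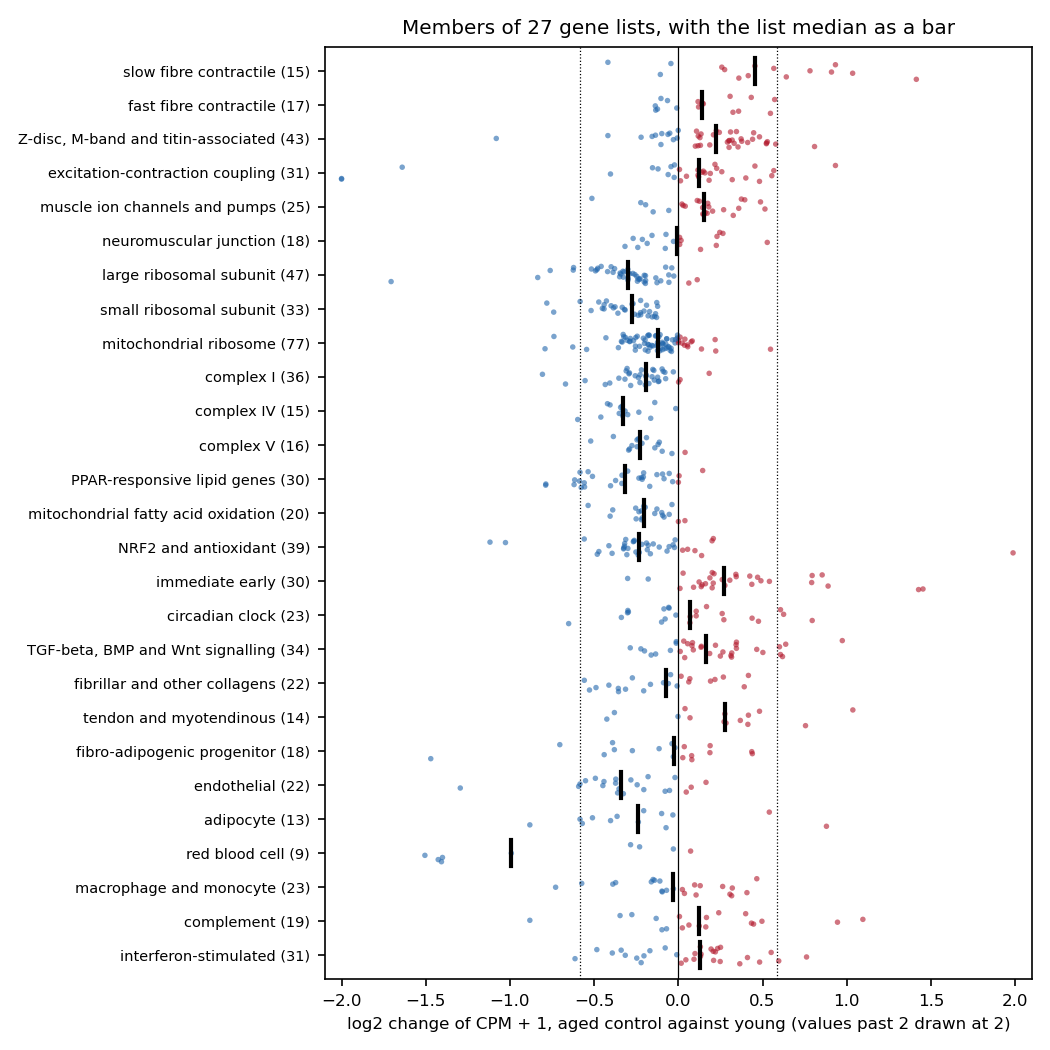
Log2 change of CPM + 1 in aged control against young (horizontal axis) for the members of 27 gene lists, with the number of compared members after each name. Points are genes, coloured by direction, black bars are list medians and dotted lines mark 1.5-fold; the bar lies at 0.45 for slow fibre genes, at -0.33 for complex IV and at -0.99 for red cell genes.

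Contractile genes of both fibre classes were higher on balance, and the slow ones by more. Of 15 slow fibre genes, 12 were higher and 3 lower, with a median of 0.45. By at least 1.5-fold, 6 were higher, against 2.69% of all genes. Myl2, the slow regulatory light chain, stood at 95.9 CPM in young mice against 150.0 CPM in aged control. Myl3, the slow essential light chain, stood at 185 and 248 CPM. Atp2a2, the calcium pump SERCA2 of slow fibres, stood at 184 and 273 CPM. Summed over the list, slow fibre transcripts made up 924 CPM in young, 1311 CPM in aged control and 1093 CPM under EPA.

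The slow list was not uniform. Csrp3, the muscle LIM protein that also responds to load, was lower, at 96.6 CPM in young mice against 72.01 CPM in aged control. Myoz2, a calcineurin-binding Z-disc protein of slow fibres, was about level at 106 and 103 CPM. Small inhibitors of the calcium pump were higher at low levels: Sln, sarcolipin, stood at 1.25 and 3.302 CPM, and Pln, phospholamban, at 4.74 and 6.86 CPM.

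Of 17 fast fibre genes, 11 were higher and 6 lower, with a median of 0.14 and no member 1.5-fold apart. Mybpc2, the fast myosin-binding protein C, was the highest by change, at 3767 CPM in young mice against 5599 CPM in aged control. Mylk2, the kinase of the regulatory light chain, stood at 632 and 853 CPM. The 6 lower members included small proteins of the thin filament and cytosol, such as Tnnc2, fast troponin C (6312 and 5741 CPM), and Pvalb, the calcium buffer parvalbumin (6647 and 6357 CPM). Outside that list, Myh3, the embryonic myosin heavy chain found in regenerating or denervated fibres, stood at 2.22 CPM in young, 7.76 CPM in aged control and 4.06 CPM under EPA. Myh8, the perinatal heavy chain, was level at 124 and 123 CPM.

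Structural proteins of the sarcomere were mostly higher. Among 43 genes of the Z-disc, M-band and titin filament, 31 were higher and 12 lower (median 0.22). Ttn, the giant spring protein titin, stood at 3638 CPM in young mice against 4482 CPM in aged control, and Neb, nebulin, the ruler of the thin filament, at 2829.7 and 3618 CPM. Myom1, an M-band crosslinker, stood at 1138 and 1432 CPM. Outside that list, Synm, an intermediate filament protein that binds desmin, stood at 539.9 and 812 CPM. The only list member at least 2-fold apart was Pdlim5. Of 28 genes of the dystrophin complex and membrane repair, 19 were higher (median 0.09), Itgb1 alone by 1.5-fold, while Dmd, dystrophin itself, stood at 39.7 and 49.7 CPM.

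Genes that couple excitation to contraction and set membrane excitability were also higher on balance. Of 31 compared coupling genes, 21 were higher and 10 lower (median 0.12). The large changes ran the other way. By at least 1.5-fold, 1 was higher and 3 were lower, against 2.69% and 2.55% of all genes. By 2-fold, 0 were higher and 3 lower, against 0.895% and 0.841%. Ryr1, the calcium release channel, stood at 1975 CPM in young mice against 2608 CPM in aged control. Cacna1s, the voltage sensor, stood at 722 and 1008 CPM, and Jsrp1, a protein of the sarcoplasmic reticulum at the same junctions, at 189 and 278 CPM. The channel subunit genes Cacng6 and Cacng7 were listed at 0 in aged control alone. Cacng6 stood at 61.1 CPM in young and 66.4 CPM under EPA, and Cacng7 at 14.4 and 13.8 CPM. Whether their reads were assigned to other genes in aged control was not tested. Cacng1, the gamma subunit found in skeletal muscle channels, stood at 254 CPM in young mice against 318 CPM in aged control.

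Of 25 ion channel and pump genes, 20 were higher and 5 lower (median 0.15), with none 1.5-fold apart. Clcn1, the chloride channel that sets the resting conductance of fibres, stood at 145 and 182 CPM. Slc8a3, a sodium-calcium exchanger, stood at 43.6 and 61.5 CPM, and Kcnq5, a potassium channel, at 16.03 and 23.3 CPM. Atp1b1, a beta subunit of the sodium-potassium pump, was lower, at 260.0 and 227 CPM.

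Genes of the neuromuscular junction showed no shared direction. Of 18 compared, 9 were higher and 9 lower (median -0.01), and none was 1.5-fold apart. Chrna1, the alpha subunit of the acetylcholine receptor, stood at 17.97 CPM in young mice against 19.8 CPM in aged control, Chrne, the adult epsilon subunit, at 15.2 and 11.996 CPM, and Musk, the receptor kinase that clusters them, at 23.9 and 28.1 CPM. Lrp4, the agrin receptor, had the largest positive change, at 6.78 and 10.2 CPM.

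Genes known to respond to denervation were divided. Of 22, 12 were higher and 10 lower (median 0.08), and all 5 at least 1.5-fold apart were higher, against 2.69% of all genes. These 5 were Myh3, Sln, Hdac9, Dach2 and Eda2r, the last a receptor of the TNF family. The list was not sorted by whether denervation raises or lowers a gene, so these values are not read as a response to denervation. Hdac9, a histone deacetylase that represses muscle genes, stood at 1.897 CPM in young mice against 4.87 CPM in aged control, Dach2, a transcriptional corepressor, at 2.69 and 4.84 CPM, and Eda2r at 25.3 and 40.6 CPM. Among genes of muscle atrophy, Trim63 (MuRF1), a ubiquitin ligase, stood at 459.5 CPM in young mice against 320.4 CPM in aged control, and Fbxo32 (atrogin-1), another, at 286 and 229.9 CPM. Their direction was not that of the list of atrophy ligases and FoxO genes, in which 17 of 28 were higher and 11 lower (median 0.06) and Mul1 alone was 1.5-fold apart. Myog and Runx1, both induced in denervated fibres, were level, with Myog at 3.098 and 3.34 CPM and Runx1 at 3.34 and 3.59 CPM.

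Of 16 Schwann cell and myelin genes, 12 were lower and 4 higher (median -0.10), with summed levels of 232 CPM in young mice against 224 CPM in aged control. Drp2, which links myelin to the Schwann cell membrane, stood at 13.2 and 5.499 CPM. Pmp22, another myelin protein also made outside nerve, was higher, at 42.3 and 64.6 CPM. Among 24 genes of satellite cells and the myogenic programme, 11 were higher and 13 lower (median -0.01). Pax7, which marks satellite cells, stood at 2.37 and 2.13 CPM with a counting interval of the log2 ratio of -0.56 to 0.17, so no difference was detectable at this depth. Myod1 stood at 33.7 and 24.7 CPM and Mef2c, a factor of mature fibres, at 458 and 623 CPM.

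Protein breakdown and folding differed little. Medians were -0.08 over 38 proteasome genes (27 lower), -0.02 over 37 autophagy and mitophagy genes (19 lower), -0.07 over 36 chaperone genes (23 lower) and -0.07 over 35 genes of the unfolded protein and ATF4 responses (25 lower). Calpain and cathepsin genes were lower in 14 of 20 (median -0.13). Ctsd, a lysosomal protease, stood at 639.9 CPM in young mice against 557 CPM in aged control. Mul1, a ubiquitin ligase of the mitochondrial outer membrane and a member of the atrophy list, stood at 35.1 and 19.4 CPM, against 34.3 CPM in aged EPA. Hspa1a, the inducible HSP70, stood at 25.9 and 15.3 CPM, and its near-identical neighbour Hspa1b, whose reads may be shared, at 18.5 and 12.8 CPM. Atg7, an enzyme of autophagosome formation, was the only autophagy gene 1.5-fold apart, at 8.38 and 13.4 CPM.

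Ribosomal protein genes were lower almost throughout. Of 47 genes of the large subunit, 45 were lower (median -0.30), and all 33 of the small subunit were lower (median -0.27). Their summed levels were 7283 CPM in young mice against 6165 CPM in aged control for the large subunit and 5057 and 4142 CPM for the small one. Examples were Rps10 at 104 and 61.7 CPM, Rpl36 at 102 and 66.1 CPM and Rplp1 at 355 and 269 CPM. Rpl4 and Rpl11 were the 2 members that were higher, at 554 and 578 CPM and at 96.7 and 105 CPM. The muscle-specific paralogue Rpl3l was nearly level, at 325 and 317 CPM. Ribosomal protein genes have many processed pseudogenes, so the counting of shared reads bears on these values.

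Rpl7a stood apart from the rest of its list. It held 35.9 CPM in young, 10.3 CPM in aged control and 34.1 CPM under EPA, and lies 62 bases from Surf1 and 86 bases from Med22, neither of which was 1.5-fold apart. Other parts of the translation machinery were level, with medians of 0.01 over 38 initiation and elongation factor genes and of -0.0026 over 22 tRNA synthetase genes. Eef2 stood at 1501 and 1469 CPM and Eif4g1 at 402 and 467 CPM.

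Short genes were lower as a class, and that moved with the ribosomal and respiratory lists. Among all compared genes, the shortest of 5 equal classes of annotated exon length (up to 2.25 kb) had a median change of -0.12, and the longest (from 7.52 kb) a median of 0.07. Ribosomal and respiratory genes lie near the short end, with median exon lengths of 1.77 kb for the large ribosomal subunit and 1.13 kb for complex IV. With the trend of the change with exon length subtracted, the medians were -0.20 for the large and -0.18 for the small ribosomal subunit. The origin of this relation with length was not tested.

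**Figure D4:**
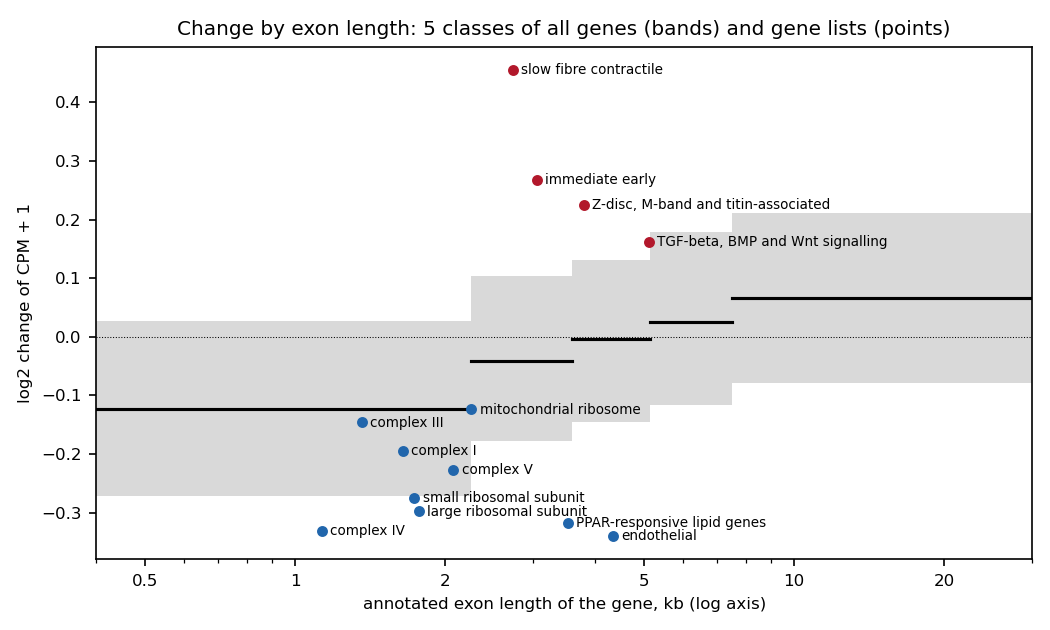
Log2 change of CPM + 1 in aged control against young (vertical axis) against annotated exon length (horizontal log axis, in kb). Black lines and grey bands are the median and the quartiles of all compared genes in each of 5 classes of exon length. Points are the medians of 13 gene lists at their median exon length. The class medians climb from -0.12 to 0.07. Both ribosomal subunits, complex IV, PPAR-responsive and endothelial genes lie below the band, and slow fibre, immediate-early, Z-disc and TGF-beta genes above it.

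Nuclear genes of the respiratory chain were lower in most members. The counts lower were 33 of 36 for complex I (median -0.20, and -0.09 after subtraction of the length trend), 7 of 9 for complex III (-0.15 and -0.05), 15 of 15 for complex IV (-0.33 and -0.19) and 15 of 16 for complex V (-0.23 and -0.16). Complex II, with 4 genes, had a median of -0.04. Within complex I, Ndufa5, an accessory subunit of complex I, stood at 111 CPM in young mice against 69.2 CPM in aged control, whereas Ndufs1, its large iron-sulphur subunit, stood at 237 and 269.6 CPM.

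In complex IV, Cox6a2, the muscle form of a small complex IV subunit, stood at 1191 CPM in young mice against 967 CPM in aged control, and Cox5b at 253 and 183 CPM. In complex V, Atp5b, the catalytic beta subunit of the ATP synthase, was level at 1827 and 1878 CPM, while Atp5k, a small membrane subunit, stood at 63.5 and 43.96 CPM. The core proteins of complex III, Uqcrc1 (309.8 and 313 CPM) and Uqcrc2 (369 and 378 CPM), were level too. Of 13 genes encoded by the mitochondrial genome, 11 were lower (median -0.11), and the median was 0.01 once the length trend was subtracted, so the direction of that list turned with this step. Their sum was 224464 CPM in young mice against 209536 CPM in aged control.

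Mitochondrial ribosome genes were lower in 63 of 77 (median -0.12, and -0.06 without the length trend), and import and dynamics genes in 33 of 39 (median -0.10). Mrpl17 stood at 34.1 CPM in young, 19.3 CPM in aged control and 32.5 CPM under EPA. Mfn2, which fuses mitochondria, was higher, at 393 and 465 CPM, and Opa1, its partner at the inner membrane, level at 89.3 and 91.5 CPM. Enzymes of the tricarboxylic acid cycle showed no shift (median 0.02, 20 of 34 higher), with Cs, citrate synthase, at 831 and 869.8 CPM. Regulators of mitochondrial number did not shift together either (median 0.02, 13 of 25 higher). Ppargc1a, the coactivator PGC-1alpha, stood at 76.4 and 85.1 CPM, and Ppara, the fatty acid receptor, at 6.64 and 11.1 CPM.

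Genes that the PPAR receptors control in muscle were lower in 27 of 30 (median -0.32, and -0.28 without the length trend). By at least 1.5-fold, 5 were lower, against 2.55% of all genes. Ucp3, an uncoupling protein of muscle mitochondria, stood at 323 CPM in young mice against 219 CPM in aged control. Mlycd, which removes the malonyl-CoA block on fatty acid entry, stood at 112 and 76.6 CPM, and Angptl4, a secreted inhibitor of lipoprotein lipase, at 18.2 and 12.04 CPM. Cpt1b, which loads fatty acids onto carnitine for entry, differed little, at 349.6 and 349.7 CPM (log2 count ratio -0.04). Enzymes of mitochondrial beta-oxidation were lower in 18 of 20 (median -0.20), none by 1.5-fold, for example Acads at 50.1 and 37.6 CPM and Acadvl at 232 and 195 CPM.

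Other lipid genes were divided. Of 27 genes of fatty acid uptake and activation, 12 were higher and 15 lower (median -0.03). The 3 at least 1.5-fold higher were Lpin1, Mgll and Agpat2. Mgll, which cleaves monoglycerides, stood at 26.3 CPM in young, 96.5 CPM in aged control and 87.8 CPM under EPA. Agpat2, which makes phosphatidic acid, stood at 1.86, 6.64 and 8.42 CPM, and its gene overlaps the end of Egfl7 on the opposite strand, which stood at 32.9 and 23.9 CPM. Among 32 lipogenic and sterol genes, 19 were higher (median 0.03), with none 1.5-fold apart, and Scd1, the stearoyl-CoA desaturase, stood at 155 and 227 CPM.

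Carbohydrate genes were level as groups, with medians of -0.03 over 25 glycolytic genes and 0.07 over 20 glycogen genes. Apart from Gys1 and Gapdh, the gene at least 1.5-fold apart was Fbp2, the muscle fructose bisphosphatase, at 41.9 CPM in young mice against 27.1 CPM in aged control. Pfkm, the muscle phosphofructokinase, stood at 2662 and 3208 CPM, Ldha at 1736 and 1729.8 CPM and Slc16a3, the lactate exporter, at 329.9 and 251 CPM. Of 28 genes of insulin signalling and glucose uptake, 14 were higher and 14 lower. Slc2a4, the insulin-regulated glucose transporter GLUT4, stood at 688 and 589 CPM, and Tbc1d1, which restrains its movement to the surface, at 43.7 and 68.2 CPM.

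Among genes of amino acid, polyamine and NAD metabolism, single members stood out. Acadsb, an enzyme of isoleucine breakdown, stood at 43.99 CPM in young, 98.98 CPM in aged control and 44.2 CPM under EPA. Gpt2, an alanine aminotransferase, stood at 316 and 224 CPM, and Amd1, which makes the aminopropyl donor of polyamines, at 1342 and 1034 CPM. Nmrk2, a muscle kinase that makes NAD from nicotinamide riboside, stood at 198 CPM in young, 93.5 CPM in aged control and 110.5 CPM under EPA. Slc25a51, the mitochondrial NAD carrier, was higher, at 25.03, 45.6 and 42.1 CPM. Medians of the lists were -0.05 for amino acid breakdown, -0.07 for polyamines and methyl donors and 0.0045 for NAD genes.

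Antioxidant genes were lower in 32 of 39 (median -0.23, and -0.16 without the length trend). Sod1, the cytosolic superoxide dismutase, stood at 109.5 CPM in young mice against 82.04 CPM in aged control, Txn1, thioredoxin, at 38.6 and 27.5 CPM, and Msrb1, a methionine sulphoxide reductase, at 104 and 70.4 CPM. Nfe2l2, the factor NRF2 itself, was slightly higher at 59.8 and 65.9 CPM. The 3 members at least 2-fold apart were the metallothioneins Mt1 and Mt2, which bind zinc and copper and were lower, and Srxn1, sulfiredoxin, which was higher.

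Mt1 stood at 50.1 CPM in young, 24.1 CPM in aged control and 20.9 CPM under EPA, and Mt2 at 43.8, 19.6 and 16.1 CPM. Srxn1 stood at 8.202, 35.5 and 31.9 CPM, so both aged libraries lay on the same side of young in all 3 genes. Their promoters are shown because the metallothioneins are neighbours on chromosome 8 that stood lower together while Srxn1 stood higher than the rest of its list. Each is the 250 bases before the RefSeq start of the gene on GRCm38.p6, 5′ to 3′ on the gene's strand, and the start used in muscle may differ. Capitals mark the metal response core (TGCACNC or TGCGCNC, on either strand) in Mt1 and Mt2 and the antioxidant response core (TGACNNNGC or TGAGNNNGC, on either strand) in Srxn1.
Mt1, chr8:94178839-94179088, plus strand: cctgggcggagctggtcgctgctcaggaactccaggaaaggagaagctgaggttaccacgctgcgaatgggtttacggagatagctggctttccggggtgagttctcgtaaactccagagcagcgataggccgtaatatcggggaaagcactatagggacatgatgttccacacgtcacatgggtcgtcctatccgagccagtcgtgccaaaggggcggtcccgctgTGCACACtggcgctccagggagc
Mt2, chr8:94172368-94172617, plus strand: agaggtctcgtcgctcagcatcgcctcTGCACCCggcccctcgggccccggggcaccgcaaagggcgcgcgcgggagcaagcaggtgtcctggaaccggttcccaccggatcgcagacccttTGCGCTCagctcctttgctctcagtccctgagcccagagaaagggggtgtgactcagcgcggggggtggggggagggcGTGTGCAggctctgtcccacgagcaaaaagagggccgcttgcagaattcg
Srxn1, chr2:152105274-152105523, plus strand: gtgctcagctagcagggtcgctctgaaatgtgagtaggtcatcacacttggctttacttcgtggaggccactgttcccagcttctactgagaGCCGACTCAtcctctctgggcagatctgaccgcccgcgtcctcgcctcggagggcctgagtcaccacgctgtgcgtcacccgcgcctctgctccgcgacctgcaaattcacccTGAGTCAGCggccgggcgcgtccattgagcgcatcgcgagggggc
The metal response core was found once in the window of Mt1 and 3 times in that of Mt2, and 30.5% of the 9692 promoters of compared genes held at least 1. The antioxidant core was found 2 times in the window of Srxn1 and at least once in 25.96% of all promoters. A match of these short words is a description and no evidence of binding.

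Immediate-early genes, which are switched on within minutes of a stimulus and encode mostly transcription factors, were higher in 28 of 30 (median 0.27, and 0.28 without the length trend). At least 1.5-fold higher were 6, against 2.69% of all genes, and none was as far lower. Fosb, a relative of Fos in the AP-1 factor, stood at 1.72 CPM in young mice against 6.44 CPM in aged control (log2 count ratio 1.93, counting interval 1.60 to 2.26). Ccn1 and Ccn2, secreted matricellular proteins, stood at 36.6 and 64.2 CPM and at 39.2 and 71.7 CPM. The Krueppel-like factors Klf2 and Klf4 stood at 41.9 and 61.5 CPM and at 30.9 and 43.9 CPM.

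Members of the family did not all follow. The Nr4a receptors were divided, with Nr4a1 at 215 CPM in young mice against 258 CPM in aged control and Nr4a3, induced by exercise, at 12.9 and 10.3 CPM. The Jun genes, the partners of Fos in AP-1, differed less, with Jun at 147 and 169 CPM, Junb at 32.4 and 34.6 CPM and Jund at 44.7 and 49.3 CPM.

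**Figure D5:**
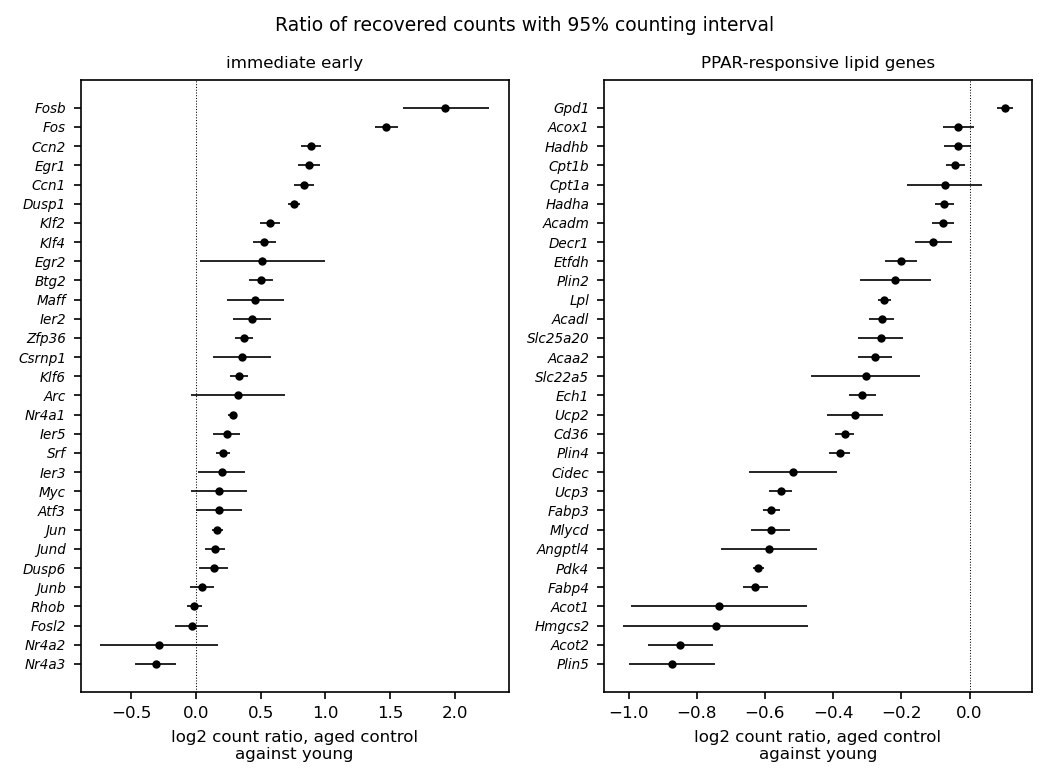
Log2 ratio of recovered counts in aged control against young with its 95% counting interval (horizontal axis) for the 30 immediate-early genes on the left and the 30 PPAR-responsive genes on the right, ordered by ratio. Intervals cover counting error only and come from 1 library a side; Fosb and Fos lie farthest to the right on the left panel, and Plin5 and Acot2 farthest to the left on the right panel.

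The promoters of Fos, Dusp1 and Ccn1 are shown for the same reason, since these 3 genes stood higher together in aged control. Fos stood at 25.8 CPM in young, 70.96 CPM in aged control and 52.5 CPM under EPA. Dusp1, a phosphatase that ends MAP kinase signals, stood at 95.02, 165 and 146 CPM. Capitals mark TGACG, the core word of the cAMP response element, on either strand, and TGACGTCA where 2 such words overlap in the full element.
Fos, chr12:85473640-85473889, plus strand: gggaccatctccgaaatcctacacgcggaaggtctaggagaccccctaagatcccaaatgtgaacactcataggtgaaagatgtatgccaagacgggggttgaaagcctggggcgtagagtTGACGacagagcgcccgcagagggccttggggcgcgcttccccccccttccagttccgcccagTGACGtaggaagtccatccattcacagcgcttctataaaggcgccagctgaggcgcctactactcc
Dusp1, chr17:26508473-26508722, minus strand: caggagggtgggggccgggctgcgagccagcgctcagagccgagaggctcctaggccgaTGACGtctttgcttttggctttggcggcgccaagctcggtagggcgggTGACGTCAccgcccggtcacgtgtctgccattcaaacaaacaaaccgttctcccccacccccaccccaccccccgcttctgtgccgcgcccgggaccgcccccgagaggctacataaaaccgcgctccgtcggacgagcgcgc
Ccn1, chr3:145649986-145650235, minus strand: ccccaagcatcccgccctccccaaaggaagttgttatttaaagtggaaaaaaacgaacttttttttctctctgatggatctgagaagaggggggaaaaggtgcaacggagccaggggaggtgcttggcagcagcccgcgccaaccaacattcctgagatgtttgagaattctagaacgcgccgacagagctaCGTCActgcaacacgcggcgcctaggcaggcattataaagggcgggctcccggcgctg
The word TGACG was found in the windows of 14 of the 25 immediate-early genes with a promoter in the RefSeq table (56%) and in 26.98% of the 9692 promoters of compared genes. The full element was found in 2 of the 25 and in 2.67% of all. Other words were also more frequent in these windows. The TATA box word TATAA was found in 28% of the 25 and in 8.29% of all promoters. The serum response element (CArG box) was found in 8% and 1.17%, the metal response core in 40% and 30.5%, and the antioxidant core in 28% and 25.96%. The excess was therefore not particular to TGACG, and none of these matches is evidence of binding.

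Clock genes did not move one way. Arntl (BMAL1), the activator, was lower, at 25.5 CPM in young, 15.9 CPM in aged control and 14.01 CPM under EPA. Per2, a repressor, was higher at 16.9, 30.02 and 25.4 CPM. Dbp, a factor driven directly by the clock, stood at 70.3, 109 and 116 CPM, and Ciart, another repressor, at 7.46, 11.9 and 11.5 CPM. These 4 were the clock genes at least 1.5-fold apart, and over the 23 genes 12 were higher and 11 lower (median 0.07). Such transcripts cycle over the day, and the hour of sampling is not given in the labels.

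Hormone- and damage-responsive lists did not shift as a whole. The list of metallothionein and glucocorticoid-responsive genes had a median of -0.05, with Fkbp5, a chaperone induced by glucocorticoids, at 83.1 CPM in young mice against 69.2 CPM in aged control. Among 29 p53 target and senescence genes, 13 were higher and 16 lower (median -0.04). Cdkn1a (p21), a cell cycle inhibitor of senescent cells, stood at 34.6 and 29.7 CPM, and Cdkn2b (p15) at 0.839 and 1.096 CPM. Eda2r was the member at least 1.5-fold higher.

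Signalling genes of the TGF-beta, BMP and Wnt families were higher in 26 of 34 (median 0.16). By at least 1.5-fold, 5 were higher, against 2.69% of all genes, and none was as far lower. Among ligands, Tgfb3 stood at 28.6 CPM in young mice against 44.5 CPM in aged control, while Tgfb1 was level at 14.1 and 14.5 CPM. Of the intracellular relays, Smad2 stood at 7.73 and 12.3 CPM. Secreted modulators of Wnt signals were also higher, with Dkk3 at 13.4 and 27.2 CPM and Sfrp4 at 2.89 and 5.05 CPM. Id4, an inhibitor of transcription factors downstream of BMP, stood at 1.21 and 2.36 CPM.

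Of 23 myokine and growth factor genes, 8 were higher and 15 lower (median -0.08). Gdf11, a secreted relative of myostatin, stood at 9.42 CPM in young, 19.4 CPM in aged control and 22.3 CPM under EPA. Mstn, myostatin, stood at 70.7 and 81.1 CPM. Ostn, musclin, a peptide of muscle that acts on natriuretic peptide clearance, stood at 30.2, 66.5 and 56.5 CPM. Igf1, the growth factor of fibres, was lower, at 29.5 and 23.7 CPM. Outside that list, Lifr, the receptor of leukaemia inhibitory factor, stood at 18.8, 71.8 and 67.2 CPM, and Socs2, which dampens growth hormone signals, at 3.62, 9.41 and 7.5997 CPM.

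In the extracellular matrix, more collagen genes were lower and more genes of other matrix proteins higher, both by small medians. Of 22 collagen genes, 14 were lower and 8 higher (median -0.07), with summed levels of 1459 CPM in young mice against 1228 CPM in aged control and no member 1.5-fold apart. Col1a1 and Col1a2, the chains of type I collagen, stood at 171 and 134 CPM and at 204 and 176 CPM, and Col4a1, of the basement membrane, at 215 and 173 CPM. Of 44 genes of other matrix proteins, crosslinking and remodelling, 30 were higher (median 0.10). Its 4 most abundant members were divided. Dcn was about level at 830 and 845 CPM, Sparc was lower at 291 and 229 CPM, and Timp2 (227 and 276 CPM) and Timp3 (258 and 295 CPM) were higher. Lum, the small proteoglycan lumican, stood at 28.6 and 38.97 CPM, Thbs1, thrombospondin-1, at 16.2 and 25.9 CPM and Plod2, which hydroxylates collagen for stable crosslinks, at 2.54 and 4.34 CPM. Timp1, an inhibitor of matrix proteases, was lower at 2.402 and 1.05 CPM.

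Tendon and myotendinous genes were higher in 11 of 14 (median 0.28), with summed levels of 382 CPM in young mice against 449 CPM in aged control. Prg4, the lubricant lubricin of tendon and joint surfaces, stood at 11.1 CPM in young, 23.9 CPM in aged control and 27.7 CPM under EPA. Scx, the factor of tendon cells, stood at 4.48 and 6.29 CPM, and Fmod, fibromodulin, at 147 and 179.7 CPM. How much tendon was dissected with the muscle is not given, and its part in the matrix genes was not tested. Markers of fibro-adipogenic progenitors, the connective tissue cells of muscle, showed no shared direction (8 of 18 higher, median -0.03), with Pdgfra at 41.01 and 43.4 CPM but Ly6a, their surface antigen Sca-1, at 60.7, 21.3 and 49.3 CPM.

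Vessel lining and blood transcripts were lower. Of 22 endothelial genes, 19 were lower and 3 higher (median -0.34), with summed levels of 2375 CPM in young mice against 1874 CPM in aged control. Pecam1 stood at 103 CPM in young mice against 82.2 CPM in aged control, Cdh5, the cadherin of vessel junctions, at 128 and 99.2 CPM, and Aqp1, a water channel, at 570.1 and 419 CPM. Kdr and Vwf were level, Kdr at 45.3 and 46.8 CPM and Vwf at 39.8 and 41.98 CPM. Pericyte and smooth muscle genes had a median of 0.02 (9 of 16 higher), with Acta2 at 118 and 127 CPM.

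Of 9 compared red cell genes, 8 were lower (median -0.99), and their sum was 1742 CPM in young mice against 796 CPM in aged control. Alas2, the first enzyme of haem synthesis in red cells, stood at 12.9 CPM in young mice against 6.01 CPM in aged control, beside the 4 globin genes, whose near-identical copies may share reads. The part of these transcripts in other results was not tested. Adipocyte genes were lower in 11 of 13 (median -0.24, summed 3517 CPM in young mice against 3149 CPM in aged control). Car3 held most of that sum, at 2138 and 1996 CPM, followed by Plin4 at 371 and 280 CPM and Acsl1 at 377 and 327 CPM. Adipoq, adiponectin, which only fat cells make, was nearly level at 16.8 and 15.9 CPM, Retn, resistin, stood at 7.05 and 4.42 CPM, and Lep, leptin, was higher at 2.46 and 5.37 CPM. With Adipoq nearly level and Car3 holding most of the sum, neither the sum nor the median is read as a level of fat cells. Fabp4 belongs to the adipocyte, endothelial and PPAR lists, so these lists are not independent of each other.

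Immune genes outside the antibody chains shifted little. Of 23 macrophage and monocyte genes, 11 were higher and 12 lower (median -0.03), with sums of 456 CPM in young mice against 461 CPM in aged control. Ccr2 and Cd14, found on infiltrating monocytes, were lower, with Ccr2 at 6.95 and 3.796 CPM and Cd14 at 5.62 and 3.45 CPM. Cd163 and Csf1r, found on resident macrophages, were higher, at 26.8 and 35.8 CPM and at 36.8 and 45.7 CPM. C1qa and C1qb, abundant members of the same list, were slightly lower, at 36.7 and 34.2 CPM and at 35.2 and 33.5 CPM. Whether the kinds of macrophage and monocyte shifted against each other was not tested. Jchain, which joins antibody chains in plasma cells, stood at 0.196 and 1.31 CPM. The 6 compared B and plasma cell genes, of 18 in the tables, summed to 190.2 CPM in young mice against 270.4 CPM in aged control. Most of that sum came from a single antibody chain gene. Of 6 compared neutrophil and mast cell genes 5 were higher (median 0.32), among them Cpa3, a mast cell protease, at 5.45 and 7.91 CPM. Of 20 T and NK cell genes, 2 reached a mean of 1 CPM, so that list was not readable at this depth.

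Complement and class II antigen presentation genes were slightly higher, and class I genes were about level. Complement genes were higher in 13 of 19 (median 0.12), among them C7, of the membrane attack complex, at 14.8 CPM in young, 29.4 CPM in aged control and 31.2 CPM under EPA. C3, the central component, stood at 122 and 167 CPM, and C4b at 29.6 and 40.3 CPM. Class II antigen presentation genes had a median of 0.12 (5 of 7 higher), class I genes 0.03 (13 of 19 higher) and interferon-stimulated genes 0.13 (20 of 31 higher). Oas2, an antiviral enzyme, stood at 2.16 and 4.35 CPM, and Ifitm3, a membrane antiviral protein, at 44.98 and 35.3 CPM, on opposite sides. Cytokine and chemokine genes had a median of 0.06, with Cxcl14, a chemokine of connective tissue, at 125 and 76.2 CPM.

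Genes of the nucleus differed by class. Genes of the nuclear envelope and cytoskeletal linkage were higher in 19 of 25 (median 0.12, and 0.08 without the length trend), for example Plec, plectin, at 429 CPM in young mice against 570.0 CPM in aged control, and Map4, a microtubule protein, at 158 and 253 CPM. Lmna, the lamin of mature nuclei, stood at 66.7 and 74.002 CPM. Splicing genes were lower in 34 of 46 (median -0.07), such as Srsf5 at 98.9 and 75.3 CPM, with none 1.5-fold apart. Long noncoding RNAs were lower in 15 of 21 (median -0.20), with Neat1, the scaffold of paraspeckles, at 634 and 524 CPM and Malat1 level at 239 and 234 CPM. Chromatin genes were divided evenly, 21 higher and 21 lower. Over 358 genes named as zinc finger or related proteins (Zfp, Zbtb, Zscan, Zkscan), 135 were higher, with a median of -0.07.

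Some of the largest changes fell on list members, such as Cacng6, Rpl7a, Srxn1 and Mgll, and others on genes that the lists do not hold. Among the 25 largest increases in genes that averaged 5 CPM or more, Vps26a, of the retromer that sorts membrane proteins, stood at 15.4 CPM in young, 54.1 CPM in aged control and 51.5 CPM under EPA. Zbtb38, a methyl-DNA-binding repressor, stood at 12.8, 43.2 and 40.2 CPM. Kcnab1, a potassium channel subunit, stood at 5.92, 22.3 and 17.9 CPM, and Nr3c2, the mineralocorticoid receptor, at 3.34, 13.1 and 10.4 CPM. In all 4 the aged EPA library lay well above young. Other genes among these increases were high in aged control alone. For Gas7, young held 1.89 CPM, aged control 22.5 CPM and aged EPA 2.34 CPM. In that order the values of Ahdc1 were 4.23, 24.4 and 3.85 CPM, while Ablim1 had 17.7, 75.4 and 15.8 CPM.

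Among the 25 largest decreases, some were shared by both aged libraries and some were not. Nek7, a kinase of the inflammasome, stood at 147 CPM in young, 40.03 CPM in aged control and 39.9 CPM under EPA. Mtss2, a membrane-bending protein, stood at 71.9, 24.04 and 24.9 CPM, and Traf3, an adaptor of TNF receptors, at 17.04, 5.29 and 2.89 CPM. Those were low in both. By contrast, Slc43a2, an amino acid transporter, stood at 26.6, 5.76 and 25.6 CPM, Mob4 at 43.7, 12.8 and 36.4 CPM and Nfat5, a factor of osmotic stress, at 52.3, 15.7 and 36.99 CPM. In these the low value belonged to aged control alone or mostly.

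Gene assignment bears on some of these values. Of the 50 genes of largest change, 6 have an overlapping gene, 30 have an overlapping gene or one within 10 kb, and in 3 such a gene was itself at least 1.5-fold apart. The clearest case is the pair Lats1 and Pcmt1, which lie 77 bases apart on opposite strands of chromosome 10. Lats1, a kinase of the Hippo pathway, was listed at 0 in young, at 11.9 CPM in aged control and at 0 in aged EPA. Pcmt1 stood at 43.7 CPM in young, 5.53 CPM in aged control and 50.7 CPM under EPA, so it was low where Lats1 was present. Whether reads were moved between them was not tested, since reads were not analysed here.

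Genes listed at 0 in young or in aged control and at 1 CPM or more in the other were few. There were 10 at 0 in young and 17 at 0 in aged control, and 4 of each set were at 0 in aged EPA too. With 8 and 10 descriptive symbols among them, the first set held Mast3, a microtubule-associated kinase gene, at 4.55 CPM in aged control, and the second held Pdpn, podoplanin, at 3.499 CPM in young, and Trmt2a, a tRNA methyltransferase gene, at 5.84 CPM in young. Both Pdpn and Trmt2a were back in aged EPA, at 4.01 and 5.17 CPM. Fam177a stood at 11.2 CPM in young and was listed at 0 in both aged libraries. At these levels elsewhere, a count of 0 allows up to 0.0521 CPM in aged control and 0.0523 CPM in young (3 counts), and an exact 0 may also be a failed estimate, which was not tested.

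Noncoding and pseudogene classes were shifted slightly downwards. Processed pseudogenes, 541 of the compared genes, had a median of -0.14 with 141 higher, and 105 long intergenic noncoding RNAs had a median of -0.11. All compared genes of the shortest exon length class (up to 2.25 kb) had a median of -0.12. The part of length in the values of these gene classes was not tested. Protein-coding genes, 11938 of the compared, had a median of -0.01, and 108 of the 116 higher and 95 of the 109 lower genes past 2-fold were protein-coding.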

How the data were processed

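Total RNA of gastrocnemius and plantaris muscle was sequenced after library preparation by BGI protocols, per the labels. The submitters' processing notes name HISAT2 2.1.0, StringTie 1.3.4d, R 3.5.0 and build GRCm38; their roles, the handling of strand and that of reads shared between genes are not given in the sources used here. The deposited values are CPM per gene. They became whole counts with 5 divisors, which all occur in each table and differ from gene to gene (largest distance from a whole number 3.0268e-09); the sums of these counts are the depths in the report.

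CPM were used as deposited and joined on the gene identifier, and genes averaging 1 CPM or more over the 3 libraries were compared as log2(CPM + 1). This scale understates the change of genes at a few CPM. Exon lengths and positions come from GENCODE M21, which held all 12966 compared identifiers. Python 3.11.15, numpy 2.4.6, pandas 2.3.3, scipy 1.17.1 and matplotlib 3.10.9 were used, and the counting of changed genes was tested on simulated data. Named genes were the 25 largest changes per direction among genes averaging 5 CPM or more, the 15 largest at 100 CPM or more, the 20 most abundant, up to 10 members per list past 1.5-fold and the 4 most abundant, neighbours of the first set, and genes listed at 0 in young or aged control. Other list members were named after their values were seen. A few genes that the rule covers are not reported here by name. Members and lists were chosen with earlier results of these data known.

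Alternatives were pseudocounts of 0.1 and 5 CPM, other filters, scaling by the median of ratios or a trimmed mean of log ratios, leaving out mitochondrial or the most abundant genes, recovered counts divided by the total of their library, summed symbols, subtracted trends with exon length or abundance, and 1.5-fold in place of 2-fold. Promoters come from RefSeq on GRCm38.p6.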

Additional observations from a re-analysis of the deposited data

How the results depend on the processing

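The counts of genes at least 2-fold apart followed the weight given to low values. With a pseudocount of 0.1 CPM, 173 genes were higher and 173 lower, and with 5 CPM the counts were 57 and 47. A minimum mean of 5 CPM left 68 genes lower, fewer genes being tested. At 1.5-fold, 349 were higher and 330 lower. The other alternatives kept both counts within 1.5 times those reported. Of the 34 lists whose median lay at least 0.1 from 0, 2 crossed 0: the mitochondrially encoded genes, at 0.0137 with the exon length trend subtracted, and the T and NK cell genes, at 0.0029 with no filter on low values; the cause of the latter was not tested. Of the 36 lists with a median nearer to 0, 15 crossed it in at least 1 alternative, the farthest of them being the denervation list (0.08, and -0.05 at a minimum mean of 5 CPM), so the sign of such small medians is not settled. With recovered counts over the total of each library, the number of higher members differed in 34 of the 70 lists, by at most 3 genes, and the largest move of a list median was 0.041. Of 174 named genes at least 1.5-fold apart, none changed sign, and 51 fell under 1.5-fold in at least 1 of 12 alternatives. No paired analysis was possible because each group is 1 pooled library, and for the same reason no replicate could be left out. Depth limits genes of a few CPM and none of the abundant ones, while the spread between mice and preparations is unknown for all.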
